A study of Mus musculus with 80 samples.

Results

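E14 is a wild-type mouse embryonic stem cell (ESC) line, and the data described here are its reduced representation bisulfite sequencing (RRBS) libraries made 72 and 96 h after a switch from serum medium to 2i, in which MEK and GSK3 are inhibited and serum is absent. There were 2 libraries per time point, all of the same genotype and strain label (wild-type, E14), and nothing in the labels says that the 2 came from separate cultures, so a spread between them may be technical. The genome was divided into tiles of 500 bp, and a tile was kept where it had 20 or more calls and 3 or more cytosine positions in all 4 files, on autosomes. Hence 68157 tiles remained, of 450889 autosomal tiles with a call in any of these files and 1768833 with a call in any usable RRBS file of the series. Methylation of a tile was its methylated calls over all its calls. Beside these groups, E14 RRBS of serum and of 24, 48 and 168 h in 2i was used, as were RRBS of the UHRF1 WT line (wild-type, E14 background), of UHRF1 KO (UHRF1-/-, E14 background), of TET WT and of TET TKO (TET1/2/3-/-, background C57/129/FVB). RNA-seq of E14 at 72 h and H3K9me2 ChIP followed by bisulfite sequencing completed the set. The ChIP libraries are of wild-type E14 in serum and in 2i, with inputs (2 each). Their labels give no hours in 2i, and the study describes the 2i cells as long-term cultures. Each knockout is a single line in the labels.

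DNA methylation at CpG sites is copied to the new strand after replication by DNMT1, which is brought to hemimethylated sites by UHRF1. DNMT3A and DNMT3B, with the cofactor DNMT3L, add methylation to unmethylated sites, and the TET enzymes oxidise it. CpG islands at gene starts are mostly unmethylated in ESCs, while imprinted control regions and the promoters of many germ line genes are known for carrying methylation. ESCs in serum are highly methylated and those in 2i are known to lose most of it, which makes a stretch of the course where the mean hardly moves of interest.

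The promoters of 3 genes covered by these tiles are shown, because their levels at 72 and 96 h are described further down. Each is the RefSeq sequence (build GRCm38.p6) from 250 bases before to 50 bases after the start of the gene, 5′ to 3′ on the strand of the gene, with every CpG in capitals. The files are on NCBIM37, so promoters were placed in them by the spacing of their CpGs and not by coordinates. Mael, a piRNA pathway gene of the germ line, is at chr1:166238695-166238994 on the minus strand and has 24 CpGs. Sycp1, which encodes a protein of the synaptonemal complex of meiosis, is at chr3:102936051-102936350 on the minus strand and has 21. Plagl1, an imprinted gene whose promoter carries a maternal methylation imprint, is at chr10:13090582-13090881 on the plus strand and has 26.
Mael: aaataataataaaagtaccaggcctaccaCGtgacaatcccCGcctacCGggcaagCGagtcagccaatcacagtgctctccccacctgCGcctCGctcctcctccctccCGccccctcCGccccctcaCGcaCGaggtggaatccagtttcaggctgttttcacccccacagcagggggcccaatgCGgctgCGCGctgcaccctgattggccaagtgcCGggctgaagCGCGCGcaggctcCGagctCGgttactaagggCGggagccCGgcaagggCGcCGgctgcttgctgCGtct
Sycp1: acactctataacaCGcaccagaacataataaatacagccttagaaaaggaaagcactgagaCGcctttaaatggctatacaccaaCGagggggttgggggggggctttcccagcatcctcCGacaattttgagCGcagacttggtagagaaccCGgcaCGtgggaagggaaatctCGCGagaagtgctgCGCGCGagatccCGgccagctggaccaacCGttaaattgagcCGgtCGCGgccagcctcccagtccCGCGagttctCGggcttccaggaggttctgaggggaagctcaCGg
Plagl1: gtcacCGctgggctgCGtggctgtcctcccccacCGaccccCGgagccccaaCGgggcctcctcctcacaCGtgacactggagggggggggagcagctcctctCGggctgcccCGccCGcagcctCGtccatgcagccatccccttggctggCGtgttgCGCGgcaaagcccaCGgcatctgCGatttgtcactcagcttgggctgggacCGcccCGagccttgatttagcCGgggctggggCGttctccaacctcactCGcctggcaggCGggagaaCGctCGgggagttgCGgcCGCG

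The 4 libraries held 11936170 to 17168854 calls, and the tiles had a median of 82 calls. The second 72 h library was the shallowest, with a median of 64 calls per tile against 86 to 92 in the other libraries. Replicates differed per cytosine by little more than counting noise (chi-square per position 1.05 at 72 h and 1.04 at 96 h, where 1 is counting noise alone). Per tile the prior dispersion was 1.4 over the 33820 tiles with 5 or more expected calls of each kind and 0.578 over all 68157 tiles. The replicates were kept as separate samples, as labelled. In RNA-seq of E14 at 72 h, 7 of 7 ESC markers were at or above the 97.8th percentile of genes, among them Pou5f1 and Nanog, and the primitive endoderm markers Gata4, Gata6 and Sox17 were at the 47.4th to 57.2nd percentile.

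Mean tile methylation was nearly level between the time points. It was 28.5% and 28.1% in the 72 h samples and 27.2% and 27.2% in the 96 h samples, so the groups did not overlap. The means were 28.3% ± 0.278 and 27.2% ± 0.0368 (SD, n = 2 each), a difference of -1.10 points, with -0.876 to -1.32 over the 4 pairs of samples. The exact two-sided permutation p was 0.333, which is the smallest that 2 samples against 2 allow. Neither this nor any other exact permutation test of 2 with 2 below can therefore pass 0.05. Tests of single tiles further down are not bound by this, because they borrow their spread from other tiles. On the 55777 tiles covered in all 12 E14 files, the step was -4.67 points from 48 to 72 h, -1.08 points from 72 to 96 h and -8.28 points over the 72 h that followed, which is -2.76 points per 24 h.

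Behind the level mean, the distribution of tile levels widened from 72 to 96 h. Tiles under 20% were 53.0% and 53.2% of all at 72 h and 55.9% and 55.9% at 96 h. Tiles at 80% or more were 4.44% and 4.60% of all at 72 h and 6.21% and 6.24% at 96 h. Both ends of the distribution therefore held more tiles at 96 h than at 72 h, and the median tile was at 13.7% and 13.5% at 72 h and at 8.94% and 9.09% at 96 h. Over the longer course the upper end shrank. Of the tiles covered in each library, 16.0% and 16.4% were at 80% or more at 48 h, and 1.40% and 1.47% at 168 h. Those under 20% were 52.3% and 51.7% at 48 h, and 65.9% and 67.6% at 168 h.

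The tiles were then grouped by their level in the 2 E14 serum libraries, which took no part in the comparison of 72 with 96 h. Tiles of low and intermediate serum level were lower at 96 h, and tiles of high serum level were higher. Tiles at 20 to 40% in serum (4110 tiles) were at 20.7% and 20.6% at 72 h and at 15.3% and 15% at 96 h, a difference of -5.50 points. Tiles at 40 to 60% (5094) were at 36.0% and 35.3% and then at 30.1% and 29.9%, a difference of -5.68 points. Tiles at 60 to 80% (7877) moved from 51.8% and 51.0% to 47.8% and 47.8%, or by -3.59 points. In each of these classes both 96 h samples lay below both 72 h samples.

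The direction turned above 80%. Tiles at 80 to 90% in serum (9756) were at 64.0% and 62.8% at 72 h and at 65.2% and 65.1% at 96 h, a difference of 1.73 points that was 1.11 to 2.35 over the pairs. Tiles at 90 to 100% (7261) were at 73.4% and 72.6% at 72 h and at 76.7% and 76.7% at 96 h, a difference of 3.72 points that was 3.32 to 4.12 over the pairs. In this class both 96 h samples exceeded both 72 h samples (exact two-sided permutation p = 0.333). The SD between replicates was 0.538 points at 72 h and 0.0285 points at 96 h. That spread may be technical and need not measure variation between cultures. The median tile of the class was at 73.8% and 73.1% at 72 h and at 77.6% and 77.6% at 96 h. Single tiles were noisy: 4975 of the 7261 were higher at 96 h and 2270 lower.

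**Figure D1:**
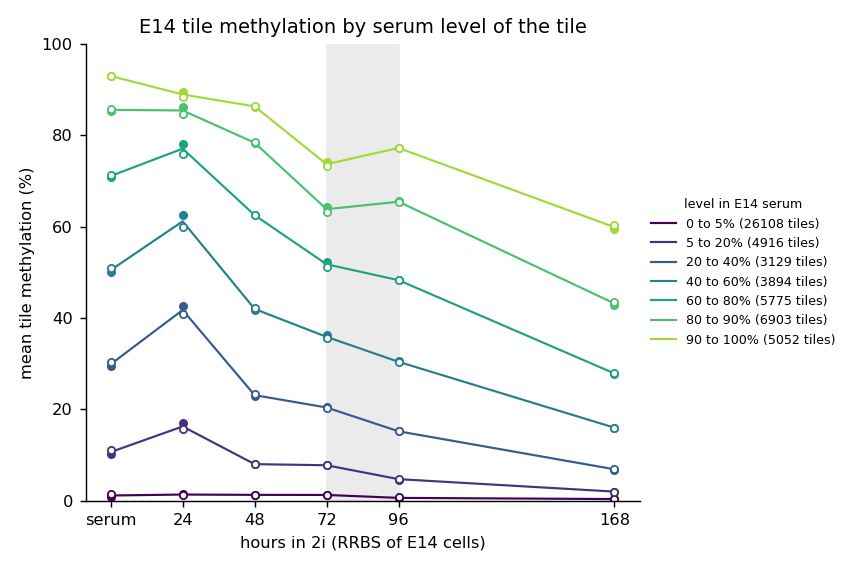
Mean methylation of E14 tiles (y axis, %) against hours in 2i (x axis), for 7 classes of tiles by their level in serum; filled and open circles are replicates 1 and 2, lines join their means, the tiles are those covered in all 12 files, and the shaded span is 72 to 96 h. Within the span the classes below 80% go down and the 2 highest go up, and all classes are lower at 168 h.

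Relative to the level in serum, the classes drew apart. On tiles covered in all 12 files, the 20 to 40% class held 68.3% of its serum level at 72 h and 50.9% at 96 h, whereas the 90 to 100% class held 79.2% and then 83.1%. At 168 h these were 23.1% and 64.4%. The number of cytosines in a tile changed the size and not the direction. Among tiles at 80 to 100% in serum, the difference from 72 to 96 h was 3.08 points in tiles of 3 to 4 positions and 1.55 points in tiles of 12 or more, and among tiles at 20 to 60% it was -4.23 and -6.18 points.

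Single tiles scattered widely between replicates. Over all tiles, the difference between the 72 h replicates had an SD of 8.53 points and that between the 96 h replicates one of 7.45, while differences across time had SDs of 8.95 to 9.67. Of all tiles, 66.7% changed by less than 5 points. Both 96 h samples lay below both 72 h samples in 31% of all tiles (21154) and above them in 12.1% (8216). In the 90 to 100% class those shares were 9.06% and 32.2%, and in the 20 to 40% class 44.5% and 8.27%.

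**Figure D2:**
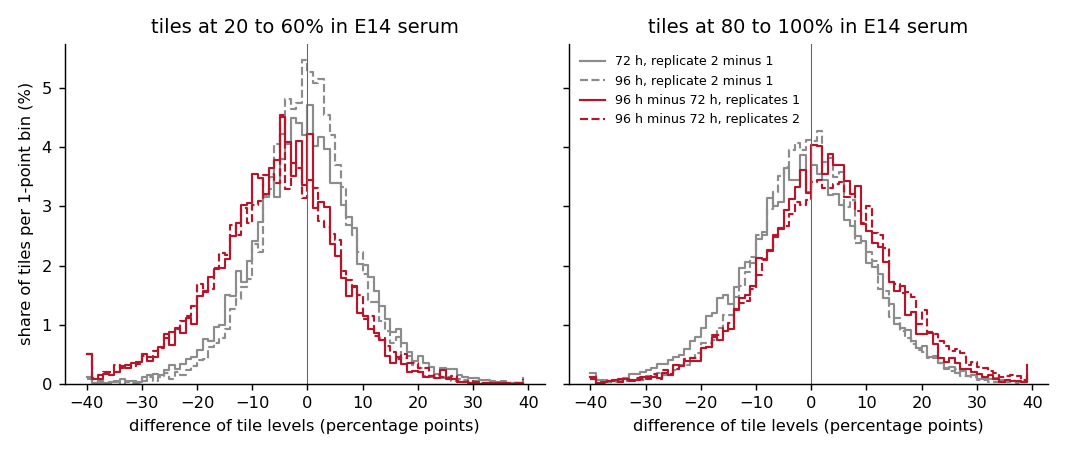
Share of tiles (y axis, % per bin of 1 point) by difference of tile level (x axis, percentage points) for tiles at 20 to 60% (left) and 80 to 100% (right) in E14 serum; grey lines are differences between replicates of a time point, red lines 96 h minus 72 h for same-numbered samples, and values beyond 40 points stand in the end bins. The red curves lie left of the grey ones on the left (median tile difference -5.11 points) and right of them on the right (2.60 points), with broad overlap.

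Tiles that were nearly unmethylated in serum were also lower at 96 h. The 27554 tiles under 5% in serum were at 1.34% and 1.37% at 72 h and at 0.558% and 0.755% at 96 h, so the 96 h mean was 48.4% of the 72 h mean. A background of methylated calls moved in the same direction. In 4144 tiles that had no methylated call in either TET WT serum file, E14 had 0.809% and 0.881% methylated calls at 72 h and 0.311% and 0.498% at 96 h. Its part in the difference of the lowest class was not tested tile by tile. Taking this background off each file left the mean difference over all tiles at -0.784 points.

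Single tiles were tested with a quasi-binomial model whose dispersion was moderated with limma. At 96 h 343 tiles (0.503%) were lower and 34 (0.0499%) higher by at least 20 points, with an adjusted p (Benjamini-Hochberg) below 0.05. Without the minimum difference these were 751 (1.1%) and 55 (0.0807%). None of the 343 or the 34 overlapped between the time points, which their choice makes likely. By serum class, the lower calls were 1.78% of tiles at 20 to 80% (304 tiles) and 0.0588% of tiles at 80 to 100% (10 tiles). The higher calls were about as frequent in both, with 0.0937% (16 tiles) and 0.106% (18 tiles). These calls depended on how the spread between replicates was estimated. The dispersion prior came from tiles with at least 5 expected calls of each kind; taken from all tiles it gave 1 lower and 0 higher tile. limma on log ratios called 0 and 0. Before adjustment, 8374 lower and 1160 higher of the 68157 tiles had a p under 0.05 by limma. These tiles had to meet no minimum difference, and at most 1019 of the lower and 440 of the higher reached 20 points. In the main model, leaving out any 1 of the 4 libraries lowered the counts of called tiles. Without 72 h replicate 1 they were 4 and 0, and without 72 h replicate 2 they were 3 and 0.

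The 304 lower tiles that were covered in all 12 E14 files shared a course that the test had not used. Their mean was 45.8% ± 0.744 in serum and 68.2% ± 1.55 after 24 h (SD, n = 2), and 294 of them were higher at 24 h than in serum. This share of 96.7% compares with 52.9% of all tiles and 83.5% of tiles at 20 to 60% in serum. Their mean then was 37.1% ± 0.107 at 48 h and 11.7% ± 0.403 at 168 h. The values that chose them were 48.1% ± 0.434 at 72 h and 21.2% ± 0.0215 at 96 h, so that their mean at 72 h stood above that at 48 h, as a choice by a high 72 h level favours. In the TET lines 224 of the lower tiles were covered, and in serum they averaged 29.4% ± 0.00801 for TET WT but 62.9% ± 0.216 for TET TKO. For all tiles covered there the means were 19.6% and 27.7%, and for tiles at 20 to 60% in E14 serum they were 27.6% and 52.6%.

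The 30 higher tiles covered in all 12 files went the other way. Their mean in serum was 72.6% ± 0.867, and after 24, 48 and 168 h it was 68.4% ± 0.520, 69.7% ± 0.391 and 44.3% ± 1.93. The values that chose them were 40.7% ± 0.368 at 72 h and 66.4% ± 0.418 at 96 h. A level at 72 h below both neighbouring time points was thus the common shape of these tiles, and 30 of 30 were lower at 72 h than at 48 h, which their choice by a low 72 h level favours. Of all tiles at 80 to 100% in serum, 11343 of 11955 were lower at 72 h than at 48 h too.

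Of the called tiles covered in all 12 E14 files, the 10 with the largest difference in each direction and at least 1 kb apart were examined one by one, in NCBIM37 coordinates. Called tiles without that coverage reached differences of -51.7 and 41.9 points. None of them overlapped a placed gene start, and no annotation of that build was used here. Among these 10, the largest decrease was at chr15:54952501-54953000 (6 positions), with 58.3% and 44.2% at 72 h and 8.96% and 0% at 96 h, from 33 to 67 calls per sample (adjusted p = 0.000427, limma-moderated model). The smallest adjusted p among them belonged to a tile at chr1:5009001-5009500, which was at 42.3% and 50.8% at 72 h and at 3.12% and 3.85% at 96 h (adjusted p = 4.24e-05, limma-moderated model). That tile was at 7.94% in serum, at 50.0% and 61.5% at 24 h and at 14.3% and 6.98% at 48 h, so both replicates were high at 24 and 72 h and low between. In UHRF1 WT it was at 5.38% and 7.84% at 72 h. A tile at chr9:108862001-108862500 was at 68.8% and 69.4% and then at 27.9% and 31.2% (adjusted p = 0.001, limma-moderated model).

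Among the higher tiles, the one at chr14:117946001-117946500 was at 27.0% and 16.2% at 72 h and at 51.6% and 66.7% at 96 h (adjusted p = 0.0333, limma-moderated model). The tile at chr7:16316501-16317000 had the most calls of the 10, 93 to 138 per sample, and was at 41.9% and 45.2% at 72 h and at 74.2% and 71.0% at 96 h (adjusted p = 0.00207, limma-moderated model). It was at 69.4% and 75% at 48 h. With so few calls the 95% Wilson intervals of single samples are wide, as the plot of these tiles shows, and they cover counting error only.

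**Figure D3:**
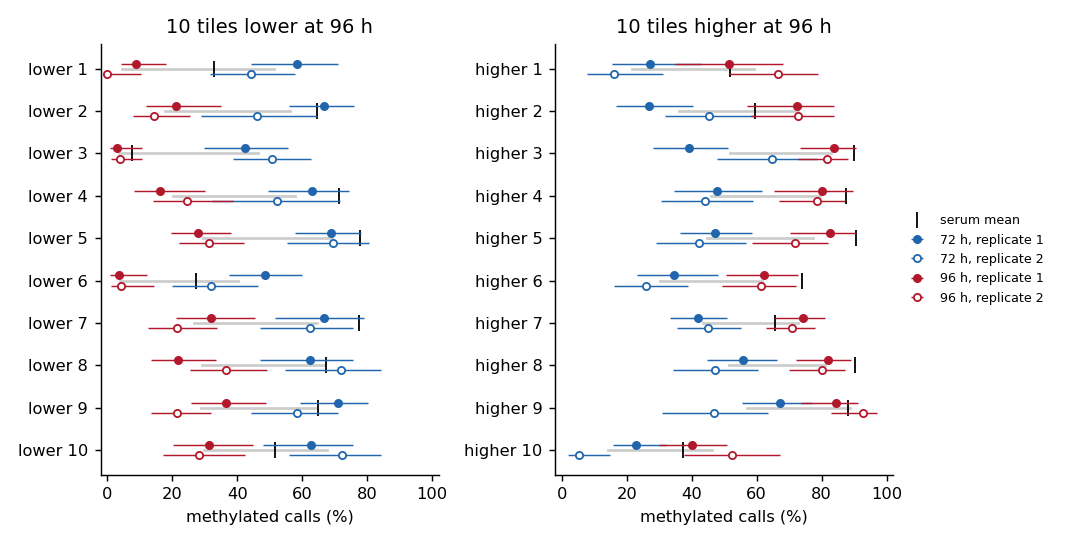
Methylated calls (x axis, %) in the 10 called tiles with the largest decrease (left) and increase (right) among those covered in all 12 E14 files and 1 kb apart, 1 tile per row; blue circles are 72 h and red circles 96 h, filled for replicate 1 and open for replicate 2, bars are 95% Wilson intervals of the calls, and black ticks are the mean of the serum samples. Blue and red points are apart in every row because the tiles were chosen so.

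Whether the step from 72 to 96 h differed from the step before it was tested on the logit scale, over the 66555 tiles also covered at 48 h. The later step lay above the earlier one in 926 tiles (1.39%) and below it in 578 (0.868%) at an adjusted p under 0.05. Against these 1504 calls in all, the dispersion prior from all tiles gave 1 call, and the fit without 72 h replicate 1 gave 309. The direction followed the serum class. In the 90 to 100% class 362 of 6975 tiles (5.19%) had a later step above the earlier one and 0 had one below, while in the 20 to 40% class these were 24 and 142 of 3993. Class means on tiles covered in all 12 files show the same. The 90 to 100% class changed by -12.6 points from 48 to 72 h and by 3.55 points from 72 to 96 h, and the 20 to 40% class by -2.70 and -5.21 points. Both steps share the 72 h samples.

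The UHRF1 WT line, the wild-type control of the knockout, offers the same 2 time points. Its libraries held 43553751 and 10871139 calls at 72 h and 11974485 and 9241335 at 96 h. Most calls of that line at 72 h are therefore from replicate 1. In the 55158 tiles covered in both lines, UHRF1 WT was at 31.0% and 31.2% at 72 h and at 25.9% and 25.9% at 96 h, a difference of -5.22 points, against -1.11 points in E14 on these tiles. With at least 50 calls per tile in both lines (30300 tiles) the difference in UHRF1 WT was -2.39 points. No E14 value was computed on those tiles, so it cannot be set against -1.11. In the 4 E14 libraries alone, that limit left 11858 of 39740 tiles at 20% or more in serum, against 34098 of 68157. All serum classes of UHRF1 WT were lower at 96 h. Its tiles at 90 to 100% in E14 serum were at 84.3% and 84.4% and then at 76.1% and 76.4%, a difference of -8.12 points, where E14 had 3.66 points. The 80 to 90% class differed by -11.2 points in UHRF1 WT and by 1.77 points in E14. At 96 h E14 and UHRF1 WT were near each other in the 90 to 100% class (77.2% and 77.2% against 76.1% and 76.4%), while at 72 h they were at 73.9% and 73.1% against 84.3% and 84.4%. The 80 to 90% class was similar, with means of 65.5% in E14 against 67.6% in UHRF1 WT at 96 h and 63.7% against 78.8% at 72 h. In the classes from 20 to 80% the lines stayed apart at 96 h. Their means were 15.2% against 24.0% at 20 to 40%, 30.3% against 41.1% at 40 to 60% and 48.1% against 56.8% at 60 to 80%. UHRF1 KO was lower at 96 h in every class too, with 46.8% and 45.4% and then 38.3% and 37.7% in tiles at 80 to 100%.

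Per tile, the change from 72 to 96 h was above that of UHRF1 WT in 192 tiles (0.348%) and below it in 35 (0.0635%) at an adjusted p under 0.05 for the interaction in the limma-moderated model. Of the 11488 tiles at 80 to 100% in E14 serum 117 were above and 0 below, and of the 12504 tiles at 20 to 80% 59 were above and 9 below. The count of 227 depended on each library: it was 11 without UHRF1 WT 72 h replicate 1, 17 without UHRF1 WT 96 h replicate 1, 25 without E14 72 h replicate 1, and 70 to 122 without any one of the others. With the dispersion prior from all tiles it was 0. Of the called lower tiles covered in UHRF1 WT, 283 (94.6%) were lower at 96 h there, which is near the 93.3% of all tiles at 20 to 60% in serum. Of the 27 called higher tiles covered there, 24 (88.9%) were lower at 96 h, near the 90.9% of all tiles at 80 to 100% in serum.

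**Figure D4:**
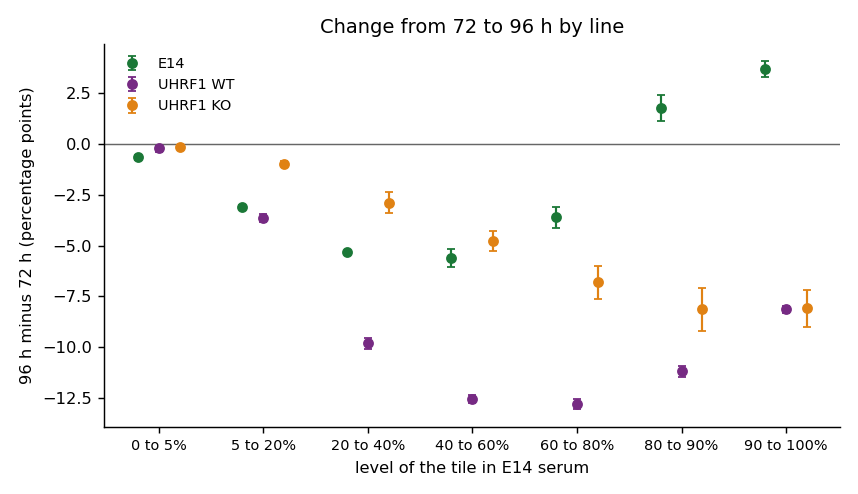
Difference of mean tile methylation, 96 h minus 72 h (y axis, percentage points), for 7 classes by level in E14 serum (x axis); green is E14 and purple UHRF1 WT on the tiles covered in both, orange UHRF1 KO on its own covered tiles, and bars span the 4 differences between single samples. UHRF1 WT and UHRF1 KO lie below 0 in all classes, and E14 is above 0 in the 2 highest.

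The E14 difference also varied with the effect of TET loss on a tile in serum, which was measured in other cells. Tiles at 20 to 60% in E14 serum that were 30 points or more higher in TET TKO than in TET WT (2613 tiles) were at 30.1% and 29.8% at 72 h and at 21.8% and 21.5% at 96 h, a difference of -8.27 points. Those with a gap under 10 points (1243 tiles) were at 29.6% and 29.0% and then at 28.3% and 27.7%, a difference of -1.34 points. The ranges over pairs did not meet (-8.54 to -7.99 and -1.90 to -0.777). Called lower tiles were 5.05% of the first group and 1.21% of the second. At 80 to 100% in serum the order was the same, with -0.793 points where the gap was 30 points or more (694 tiles) and 3.60 points where it was under 10 (4715 tiles).

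H3K9me2, a histone mark that UHRF1 can bind, was taken from 10-kb windows of the ChIP-bisulfite libraries in long-term 2i, so it was not measured at 72 or 96 h. Tiles at 40% or more in serum within the top 10% of windows (1377 tiles) were at 65.5% and 64.5% at 72 h and at 66.8% and 66.7% at 96 h. Those in other windows (26230 tiles) were at 58.2% and 57.3% and then at 57.1% and 57.1%. The gap between them was 7.30 and 7.24 points at 72 h and 9.70 and 9.69 points at 96 h, wider by 2.43 points (exact two-sided permutation p = 0.333). The widening was 3.23 points among tiles at 40 to 80% in serum and 0.697 points among tiles at 80 to 100%. Enrichment and tiles both rest on calls at cytosines, the tiles in RRBS and the enrichment in ChIP-bisulfite libraries and their inputs. A window holds several tiles.

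**Figure D5:**
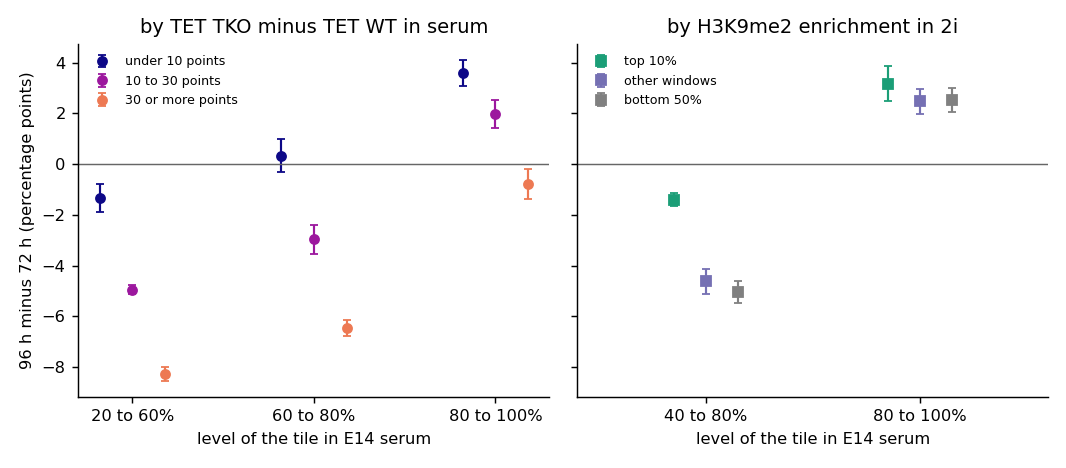
Difference of mean tile methylation in E14, 96 h minus 72 h (y axis, percentage points), by level in E14 serum (x axis); left, by how much higher a tile was in TET TKO than in TET WT serum, right, by H3K9me2 enrichment of its 10-kb window in 2i, with bars that span the 4 differences between single samples. Tiles with a TET gap of 30 points or more lie lowest in each class, and the top 10% of H3K9me2 windows lie highest.

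Gene starts were placed by CpG spacing for 5130 tiles near 5346 genes. They were almost all unmethylated: 4928 of them were under 5% in serum. The 30 gene-start tiles at 20 to 60% in serum were at 26.7% and 26.5% at 72 h and at 21.3% and 21.6% at 96 h, a difference of -5.14 points, against -5.60 points in other tiles of that class. Among all gene-start tiles 2 were called, both lower, or 0.0390%. The lists of genes that follow were chosen by function, after the data were seen.

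Of 34 listed germ line genes 7 had a tile, 8 tiles in all, and of the 6 tiles at 20% or more in serum 5 were lower at 96 h, where the share of lower tiles among all was 75.3% at 20 to 40% in serum, 72.0% at 40 to 60%, 63.5% at 60 to 80% and 42.5% at 80 to 90%. Of the 8 tiles 1 was called lower, where 0.503% of all tiles and 0.0390% of gene-start tiles were. Most gene-start tiles, 4928 of 5130, were under 5% in serum, which leaves little room for a fall of 20 points. Of the 167 gene-start tiles at 5 to 20% in serum 1 was called (0.599%), which is this same tile. At 20 to 60% it was 1 of 30 (3.33%). The called germ line tile lies at the shared start of Smc1b, which encodes a meiotic cohesin subunit, and Ribc2 (chr15:84962001-84962500 in NCBIM37). It was at 36.8% and 37.5% at 72 h and at 19.2% and 11.1% at 96 h (adjusted p = 0.0216, limma-moderated model). Calls of this tile outside the 300 bases of the Smc1b promoter were at 44.8% and 46.2% and then at 22.1% and 12.2%, whereas the promoter was at 3.85% and 2.75% and then at 0.467% and 2.25% over 11 cytosines covered in all 4 files. In UHRF1 WT the tile went from 52.2% and 51.7% to 33.8% and 37.1%.

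The Mael tile was at 23.0% and 23.2% at 72 h and at 15.1% and 14.1% at 96 h (adjusted p = 0.0591, limma-moderated model). It did not pass the threshold, although the 2 time points did not overlap. Within the Mael sequence printed above, 16 cytosines covered in all 4 files were at 13.7% and 15.2% and then at 9.68% and 7.88%, and 13 of them were lower at 96 h on average. In serum the Mael tile was at 24.0% and 24.2%, and at 168 h at 6.35% and 7.11%.

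The Sycp1 tile was not called either. It was at 56.7% and 58.2% at 72 h and at 62.5% and 55.9% at 96 h (adjusted p = 0.828, limma-moderated model), so the samples of the time points overlapped. Of the 17 shared cytosines in its printed sequence, 10 were lower and 7 higher at 96 h on average. The 2 tiles at the start of Hormad1, which encodes a protein of meiotic chromosome axes, were at 41.8% and 51.1% and then at 39.4% and 43.3%, and at 27.1% and 31.3% and then at 22.6% and 26.5%. Tex101, a testis gene, was at 82.7% and 58.6% and then at 60.6% and 71.3%, on 58 to 99 calls. Ddx4, the germ cell helicase also called Vasa, was at 9.03% and 10.3% and then at 8.27% and 8.24%.

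The other called gene start was that of Vmn2r29, a vomeronasal receptor gene of a large family of similar copies, to which reads may be assigned with uncertainty. It was at 62.0% and 54.3% at 72 h and at 38.1% and 38.1% at 96 h (adjusted p = 0.00221, limma-moderated model). In UHRF1 WT it was at 11.5% and 10.4% at 72 h and at 15.3% and 14.3% at 96 h, so there both 96 h samples were above both 72 h samples.

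The tiles of imprinted and pluripotency genes, too few for a call at these shares to be likely, held none. Of 33 imprinted genes 5 had a tile, and 1 of these was methylated. This was the Plagl1 start, at 84.2% and 81.7% at 72 h and at 82.7% and 82.0% at 96 h, from 536 to 830 calls per sample (adjusted p = 0.846, limma-moderated model). Most calls of the tile lay outside the printed Plagl1 sequence, 652 against 178 within it in 72 h replicate 1. Within that sequence, 17 cytosines covered in all 4 files were at 76.0% and 81.0% and then at 76.8% and 76.8%. On average 13 of them were lower and 4 higher at 96 h. The Plagl1 tile had been at 88.5% and 88.0% in serum and was at 75.9% and 72.2% at 168 h. In UHRF1 WT it was at 44.9% and 48.2% at 72 h. Of 20 pluripotency genes 3 had a tile (Klf2, Klf4 and Tfcp2l1), all under 2% in each of the 4 samples. Of the 9 genes of the methylation machinery 6 had a tile, and none of those tiles reached 3% in any of the 4 samples.

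RNA of these genes was measured at 72 h and not at 96 h, with 3 replicates, as log2 values. That these are corrected for gene length was judged from the values only. Dnmt1 was at 5.35 ± 0.31 and Uhrf1 at 5.98 ± 0.10 (SD, n = 3), the 95.3rd and 97.1st percentile of 25965 genes. Dnmt3b was at 2.12 ± 0.21, Dnmt3l at 0.97 ± 0.15 and Dnmt3a at 0.66 ± 0.08. Tet1 and Tet2 were at 4.18 ± 0.50 and 3.70 ± 0.55, and Tet3 at -0.64 ± 0.51. Of the germ line genes described, Hormad1 had the highest level, 3.17 ± 0.11, followed by Mael at 2.79 ± 0.25. Ddx4 was at 2.45 ± 0.05, Smc1b at 1.47 ± 0.33 and Sycp1 at 0.82 ± 0.21. Slc25a31 was at 0.56 ± 0.17 and Tex101 at -1.34 ± 0.72. Of the fibroblast markers Vim was at the 89.4th percentile, which ESCs also express, and Col1a1, Col1a2 and Thy1 were at the 49.1st to 66.3rd.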

How the data were processed

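The files the authors deposited for RRBS and ChIP-bisulfite libraries give each cytosine's methylated percent and its counts of calls of either kind. The submitters' processing notes list Trim Galore 0.3.5, Bismark 0.12.3, Bowtie2 and TopHat2 2.0.11. They list the builds NCBIM37 and GRCm38 without a role. The study names NCBIM37 for RRBS, and coordinates of tiles are given on it. The deposited RNA-seq table holds log2 values, which by their values appear to be corrected for gene length and scaled to a common upper quartile. The file of UHRF1 WT serum replicate 2 (6 positions) and the H3K9me2 ChIP-seq table were not used.

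Tiles, levels and tests were computed in Python 3.11.15 with numpy 2.4.6 and scipy 1.17.1. Each tile was fitted by a quasi-binomial logistic model whose Pearson dispersion was moderated with squeezeVar of limma 3.58.1 (R 4.3.3), with quasi-likelihood F tests and Benjamini-Hochberg adjustment over all tiles. The plan took the dispersion prior over tiles without further limits. On simulated calls that version recovered no changed tile, so the prior was estimated from tiles with 5 or more expected methylated and unmethylated calls in every sample, and other tiles took the prior value. This was decided after the data were seen. The simulated spread between replicates was drawn around the dispersion of the restricted prior as fitted to these data (1.44). Changed tiles were placed only at intermediate levels and in better covered tiles. The simulation was thus set up in favour of the restricted prior and cannot decide between the priors. Sample means were compared by exact two-sided permutation tests. H3K9me2 enrichment was the share of calls in bound over input libraries in 10-kb windows with 50 or more input calls, leaving out positions over 1000 calls. RefSeq promoters (31396 sequences) with 6 or more CpGs were placed by CpG spacing: 6093 were placed, 6072 were kept because a neighbour had the same offset, and 1 of 1786 sequences with reversed spacing was placed. A tile counted as a gene start when it held 150 bases or more of the promoter.

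Named tiles were the 10 called lower and the 10 called higher tiles with the largest difference, non-overlapping samples and coverage in all 12 E14 files, at least 1 kb apart. For RNA, the genes of the methylation machinery and the marker lists were named. The other gene lists and the called gene starts were added after the data were seen. Members and lists were chosen with earlier results of these data known. Same-numbered 72 and 96 h samples did not deviate together (r = -0.0101 across 34098 tiles, which are not independent), so replicate numbers were not used as pairs. Intervals cover counting error only, since PCR copies of a molecule are counted as calls.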

Additional observations from a re-analysis of the deposited data

Results flagged for a closer look

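The change from 72 to 96 h differed between E14 and UHRF1 WT in 227 of 55158 tiles by the test of the difference itself (interaction, adjusted p under 0.05, limma-moderated quasi-binomial model). This count was 0 with the dispersion prior first planned, and it fell when any 1 library was left out. The class means moved in opposite directions in the highly methylated tiles. Tiles at 80 to 90% in E14 serum changed by 1.77 points in E14 and by -11.2 points in UHRF1 WT, and tiles at 90 to 100% by 3.66 and -8.12 points. In both classes every pair of samples went up in E14 and down in UHRF1 WT, and the difference of these class means was not tested.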

How the results depend on the processing

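The mean difference over tiles, that in tiles methylated in serum, the gap of change between H3K9me2-high and other tiles and that in UHRF1 WT kept their direction under all alternatives tried, except that tiles at 80% or more in serum reversed to 2.58 points. The size moved in places: the difference in UHRF1 WT (-5.22 points) was -2.39 with 50 calls, and that in methylated tiles (-1.05 points) was -0.444 from 40% in serum up, -0.652 with 1 position, -1.83 with 50 calls, -2.05 with 5 positions and -0.639 without 72 h replicate 1. The time points overlapped in tiles from 40% up (exact permutation p = 0.667). Without 96 h replicate 1 the difference in methylated tiles was -1.10 points, and without 96 h replicate 2 it was -1.02 points. The mean over all tiles ran from -1.32 to -0.895 when 1 library was left out. The count of lower tiles (343 of 68157) was 227 of 39740 with 50 calls and 177 of 57585 on positions with 5 or more calls in all 4 files. On the 68157 tiles it was 574 with 10 points and 751 with no minimum difference. On these tiles it was also 0 by limma on log ratios and 1 with the dispersion prior from all tiles. The count of higher tiles (34 of 68157) was 21 of 57585 on the shared positions. On the 68157 tiles it was 55 with no minimum difference, 0 by limma and 0 with that prior. Left out one at a time, the libraries gave 3 to 137 lower and 0 to 6 higher tiles, the lone sample being assumed to vary like the others. The smallest limma adjusted p was 0.234. Tiles whose steps differ (1504) were 699 with 50 calls, 974 in the fit of all 12 E14 samples, 1 with the prior from all tiles and 309 to 894 without 1 library. Tiles that differ between E14 and UHRF1 WT (227) were 82 with 50 calls, 0 with the prior from all tiles and 11 to 122 without 1 library. The cause was not tested beyond fewer tiles or samples. The prior from all tiles is the one first planned, and the restricted prior that replaced it was chosen after seeing the data, as was taking off the background.

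With the replicate block, 437 tiles were lower and 56 higher, 1572 differed in their steps and 213 between the lines. The mean difference of -1.10 points had an exact sign permutation p of 0.5, the smallest that 2 pairs allow.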
